A study of Mus musculus with 3 samples.

Results

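Microfold-gated thymic epithelial cells (TEC) were cell barcodes that carried transcripts of the microfold (M) cell genes Gp2, Ccl20 and Spib. Members were chosen from single-cell RNA sequencing of the thymus by unique molecular identifier (UMI) counts: at least 3 UMIs of these 3 genes together with at least 2 of the 3 detected, Epcam detected, Pecam1 and Pdgfra at 0, more than 1000 genes and under 20% mitochondrial UMIs. The gate gave 107 members of 17677 called barcodes, of which 14956 passed the quality limits and 1965 were Epcam-gated (Epcam detected, Pecam1 and Pdgfra at 0). The wild type held 60 of them, the Foxn1Lin male 30 and the Foxn1Lin female 17.

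The study asked how nonhematopoietic (CD45-) stromal cells of the thymus change with age, and these libraries came from untreated 20-month-old C57BL/6 mice. Foxn1Lin female and Foxn1Lin male were libraries of a Foxn1 lineage trace, in which Cre under the control of Foxn1, a factor that TEC need, turns on a tdTomato reporter at Rosa26 in the cell and its progeny. The wild type was a male library without the trace, whose title says CD45- and whose cell type field says CD45-PECAM1+. Each group was 1 library (n = 1), made from pooled thymi by the labels, so differences between libraries could not be checked against replicates, intervals cover counting error only, and sex and genotype cannot be told apart from the library.

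In the gut, M cells sit in the epithelium over lymphoid follicles and carry particles and microbes from the lumen to the immune cells below. They arise under signalling through the receptor RANK, which acts by NF-kB, and need the Ets factor Spib and the factor Sox8 to mature. In the thymic medulla, some TEC take on gene programs of cells of other tissues, and these mimetic TEC, M-cell and tuft cell types among them, are known to follow the stage that expresses Aire, a factor that turns on tissue-restricted genes.

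The 3 genes of the gate are shown by the 250 bases before their RefSeq start (build GRCm38.p6), because Spib belongs to the Ets family whose close relative PU.1 binds a GA-rich site, the PU box. The letters GAGGAA on either strand are in capitals.
Gp2, chr7:119459273-119459522 on the minus strand: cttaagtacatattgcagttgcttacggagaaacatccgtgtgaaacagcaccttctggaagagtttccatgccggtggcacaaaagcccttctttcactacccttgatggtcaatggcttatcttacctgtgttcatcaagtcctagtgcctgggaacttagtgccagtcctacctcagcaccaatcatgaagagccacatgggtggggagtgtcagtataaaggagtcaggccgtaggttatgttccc
Ccl20, chr1:83116516-83116765 on the plus strand: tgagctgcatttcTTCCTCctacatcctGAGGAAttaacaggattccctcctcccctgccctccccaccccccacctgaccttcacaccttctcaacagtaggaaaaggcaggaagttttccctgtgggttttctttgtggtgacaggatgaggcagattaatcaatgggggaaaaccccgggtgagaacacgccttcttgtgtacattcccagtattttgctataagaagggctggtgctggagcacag
Spib, chr7:44532072-44532321 on the minus strand: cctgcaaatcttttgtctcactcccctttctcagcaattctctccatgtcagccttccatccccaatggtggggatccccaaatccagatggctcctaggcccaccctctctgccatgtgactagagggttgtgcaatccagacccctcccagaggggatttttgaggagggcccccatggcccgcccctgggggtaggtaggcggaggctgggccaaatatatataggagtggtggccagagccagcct
Of the promoters of Gp2, Ccl20, Spib, Tnfaip2 and Ccl9, only that of Ccl20 held the letters, with 2 matches 237 and 222 bases before the start, as did 5 of the 17 M-cell program genes with a promoter entry. In all, 7639 of 32851 promoters of this length held them (23.25%), so the match is a description of the sequence and says nothing of binding.

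Values of the gate genes chose the members and are given without a test. Gp2, a surface glycoprotein by which M cells take up bacteria (chr7:119442537-119459285, minus strand, GENCODE vM21), ranged from 0 to 181 UMIs a barcode with a median of 4 in the Foxn1Lin female, from 0 to 64 with a median of 1 in the Foxn1Lin male, and from 0 to 378 with a median of 1 in the wild type. Ccl20, the ligand of the receptor CCR6 (chr1:83116766-83119167, plus strand), had medians of 6, 8.5 and 1 UMIs and highest values of 55, 229 and 348 in the same order. Spib (chr7:44525993-44532071, minus strand) had medians of 6, 4 and 4 UMIs and highest values of 24, 45 and 81. A few barcodes with many UMIs thus stood beside many with 1 to 8. At the edge of the gate, 14 members had a sum of 3 UMIs, and 14 barcodes just outside had 1 UMI of each of 2 genes. Serpinb6a, a protease inhibitor of the M-cell program, was at 69.4, 389 and 161 CPM (counts per 1e6 UMIs) in the former, in the same order of libraries, and at 0, 2556 and 212 CPM in the latter, which were 1, 3 and 10 barcodes. A further 41 barcodes met every other limit but had Pecam1 or Pdgfra detected, and were left out by the rule with Serpinb6a at 2925, 1724 and 985 CPM.

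Members made up 3.26% of Epcam-gated barcodes in the Foxn1Lin female (17 of 521, 95% Clopper-Pearson interval 1.91 to 5.17), 6.47% in the Foxn1Lin male (30 of 464, 4.40 to 9.10) and 6.12% in the wild type (60 of 980, 4.70 to 7.81). Intervals of the female library and the male libraries overlapped on this denominator. Of all barcodes past the quality limits, members were 0.247% (0.144 to 0.395), 0.944% (0.638 to 1.34) and 1.23% (0.937 to 1.58), where the interval of the female library lay below both others. The members with all 3 gate genes were 1.54%, 2.37% and 0.918% of Epcam-gated barcodes, with intervals that overlapped. Members were deep, with medians of 13425, 18602.5 and 25580.5 UMIs against 12722, 13905 and 18082 in other TEC (1388 barcodes with at least 3 Epcam UMIs that did not meet the gate), and a gate on UMI counts is met more easily at depth. Other TEC left out members alone, so barcodes of the Aire-stage and tuft gates below with at least 3 Epcam UMIs stayed in it. Doublet scores lay in the highest 3.9% of their library for 0, 4 and 5 members, and Ptprc, the gene of CD45, was detected in 2, 1 and 4. The libraries shared 8, 14 and 3 barcode sequences in pairs, of which 0 were members of both. UMIs outside called barcodes, a measure of free RNA, were 26.6%, 12.9% and 9.46% of all UMIs in the Foxn1Lin female, the Foxn1Lin male and the wild type.

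Tnfaip2 and Ccl9, the 2 M-cell markers that the gate did not use, checked the name. Both were detected in 51 of 107 members, 1 of them in 36 and neither in 20, against both in 35 of 1388 other TEC (2.52%) and neither in 705. By library, both were in 58.8% of members of the Foxn1Lin female, 60.0% of the Foxn1Lin male and 38.3% of the wild type. Neither was in 11.8%, 10.0% and 25.0% in the same order. The counts differed with the gate genes detected. With all 3 detected, 25 of 28 members had both markers and 0 had neither. With Ccl20 and Spib, 17 of 43 had both and 7 neither. With Gp2 and Spib, 7 of 31 had both and 13 neither, and of the 5 members with Gp2 and Ccl20, 2 had both. In all, 76 members (71.03%) also met a gate for the Aire stage (at least 3 UMIs of Aire, Fezf2 and Cd80, 2 of them detected) and 12 a gate for tuft cells (Avil, Trpm5 and Pou2f3, same limits), 9 of these 12 with Gp2 and Spib. The Aire gate was met by 16 of the 28 members with all 3 gate genes, 36 of the 43 with Ccl20 and Spib, 22 of the 31 with Gp2 and Spib and 2 of the 5 with Gp2 and Ccl20, and the tuft gate by 0 of the 28. The gate thus held a mixed set, and the members with all 3 gate genes carried the M-cell markers most often. The 28 were 8, 11 and 9 barcodes in the Foxn1Lin female, the Foxn1Lin male and the wild type.

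**Figure D1:**
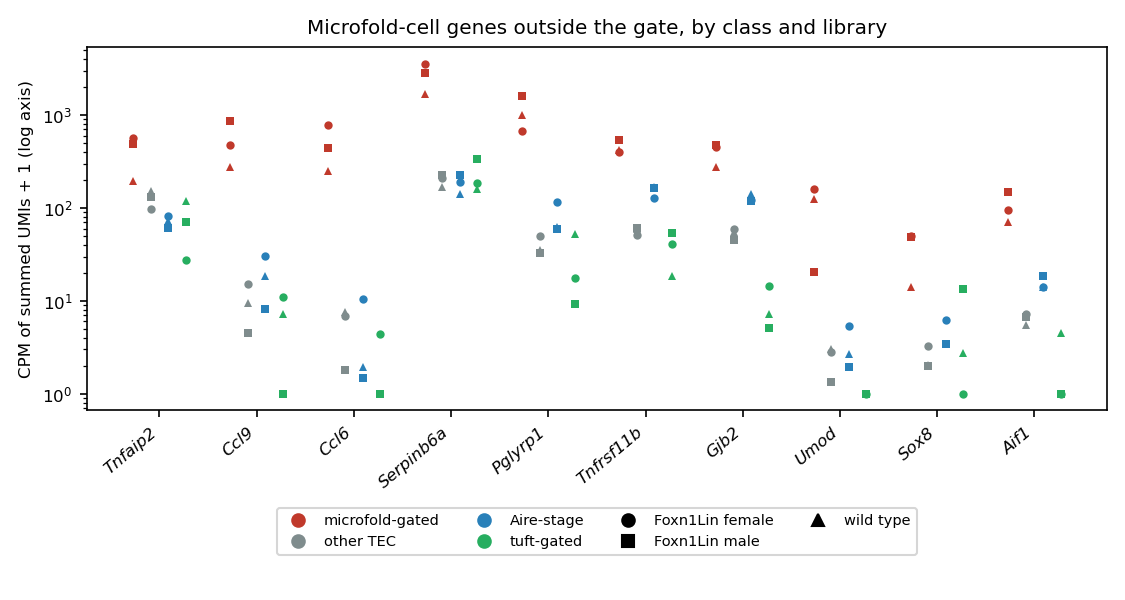
CPM plus 1 of 10 M-cell genes that the gate did not use (log axis) in microfold-gated barcodes, other TEC, Aire-stage and tuft-gated barcodes, 1 point a library. Other TEC shares barcodes with the Aire-stage and tuft-gated classes. Of Serpinb6a, the 3 microfold-gated points lie from 1698 to 3592 CPM and all other points from 139 to 337 CPM.

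To ask which genes set members apart from the rest of the epithelium, UMIs were summed per library and class and tested with edgeR's quasi-likelihood test with the library as a block. Of 10250 genes tested, 950 were higher in members (9.27%) and 646 lower (6.3%), with a median log2 fold change of -0.05. Of the 20 genes of the M-cell program 19 were tested, 17 were higher and 0 lower, with a median of 2.34. With the 28 members that had all 3 gate genes, 845 of 9847 genes were higher (8.58%) and 702 lower (7.13%), 17 program genes were higher, and the median of the program was 3.08 beside -0.15 over all genes. Of these 17, 15 held with each library left out in turn and Marcksl1 and Prnp did not, while the 1547 calls in all became 1142 without the Foxn1Lin female, 938 without the Foxn1Lin male and 1533 without the wild type. In this set without the wild type, the edgeR adjusted p of Ccl6 reached 3.1e-59, which rests on dispersion shared across genes. Calls that held are thus no measure of agreement among libraries, here or below. Leaving out the Foxn1Lin female left 438 calls in place of 1596 and leaving out the Foxn1Lin male left 465, against 1301 without the wild type. Of the 17 program calls, 9 held with each library left out in turn (Ccl9, Ccl6, Serpinb6a, Pglyrp1, Aif1, Esrrg, Tnfrsf11b, Umod and Gjb2) and 8 did not (Sox8, Marcksl1, Scg5, Prnp, Cyba, Clu, Cxcl16 and S100a4), and all 17 kept their direction.

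Serpinb6a (chr13:33917918-34002794, minus strand) was at 3592, 2826 and 1698 CPM in members of the Foxn1Lin female, the Foxn1Lin male and the wild type, and at 211, 223 and 167 CPM in other TEC. Every library was higher in members and the classes did not overlap, and the difference was 3.76 ± 0.21 (log2 fold change ± SE derived from the quasi-likelihood F, n = 3 libraries, edgeR adjusted p = 0.00272). In members with all 3 gate genes it reached 10140, 6478 and 7278 CPM, and the log2 fold change was 5.42. After thinning each barcode to 2000 UMIs, Serpinb6a was detected in 70.6%, 73.3% and 43.3% of members, in 28.8%, 35.5% and 26.9% of other TEC and in 50.5%, 40.9% and 32.4% of fibroblast-gated barcodes (FB), whose median depths were 7048, 9249 and 8075 UMIs. Serpinb6a was thus found in many stromal cells and stood at its highest level in members.

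Ccl6 and Ccl9, chemokines that draw myeloid cells, were low in the other classes. Ccl6 (chr11:83587882-83593087, minus strand) was at 781, 439 and 251 CPM in members and 5.89, 0.81 and 6.66 CPM in other TEC (log2 fold change 6.80 ± 0.72, edgeR adjusted p = 0.00612). It was detected, at 2000 UMIs a barcode, in 41.2%, 33.3% and 16.7% of members, against 0.63%, 0.29% and 0.14% of other TEC and 0.10%, 0.11% and 0.17% of FB. Ccl9, its neighbour on chr11:83572919-83578636, minus strand, was at 480, 870 and 273 CPM in members and 14.2, 3.56 and 8.60 CPM in other TEC (5.92 ± 0.66, edgeR adjusted p = 0.00658). Neither chemokine overlapped between the classes. By pattern, Ccl6 was at 2331, 1003 and 1194 CPM in members with all 3 gate genes, at 0, 218 and 81.9 CPM with Ccl20 and Spib, and at 0, 0 and 77 CPM with Gp2 and Spib, and it was detected in 25 of 28, 12 of 43 and 1 of 31 members. Tnfaip2, which encodes a protein of cell protrusions (chr12:111442469-111455018, plus strand), was at 564, 483 and 193 CPM in members and 96.2, 131 and 151 CPM in other TEC, which missed the threshold (1.66 ± 0.45, edgeR adjusted p = 0.0586). The log2 fold change was 2.29 and passed without the wild type (edgeR adjusted p = 0.0073). Without the Foxn1Lin female or the Foxn1Lin male it was 1.17 and 1.49 and missed the threshold. With all 3 gate genes Tnfaip2 was at 1529, 868 and 702 CPM and passed (3.08 ± 0.39, edgeR adjusted p = 0.000283), while FB carried it at 381, 438 and 287 CPM.

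Pglyrp1, a secreted receptor for bacterial cell wall of the M-cell program (chr7:18871331-18890459, plus strand), was at 676, 1585 and 1005 CPM in members against 49.3, 32.0 and 34.5 CPM in other TEC, and Aif1, a calcium-binding actin protein needed for particle uptake by M cells, at 94.5, 149 and 69.9 CPM against 6.29, 5.66 and 4.48 CPM. The log2 fold changes were 4.83 ± 0.39 and 4.26 ± 0.29 (edgeR adjusted p = 0.00388 and 0.00272), and neither gene overlapped between the classes. Umod, which encodes uromodulin, was at 161, 19.6 and 124 CPM against 1.83, 0.32 and 2.06 CPM, but it was detected in 13 members only and 1 barcode gave 62.4% of its UMIs. Sox8 was at 49.0, 47.3 and 13.2 CPM against 2.23, 0.97 and 1.03 CPM (4.57 ± 0.59, edgeR adjusted p = 0.00961; 0.0529 without the Foxn1Lin female and 0.0558 without the Foxn1Lin male). It was detected in 14 of 28 members with all 3 gate genes, 8 of 43 with Ccl20 and Spib and 5 of 31 with Gp2 and Spib. Over all genes, 9.27% were higher and 6.3% lower over all members, and 8.58% and 7.13% with all 3 gate genes. Of the uptake and transcytosis list, 18 of 20 genes were tested, 5 were higher and 2 lower over all members, and 8 were higher and 0 lower with all 3 gate genes. Vil1, the actin bundler villin of brush borders, was higher in both sets (3.04 ± 0.30 and 3.53 ± 0.43), and Lamp1 and Ctsd, of the lysosome, were among the 8. Over all members, Vil1 alone of the 7 calls held with each library left out, and Anxa1, Rab11a, Lamp1, Lamp2, Ctsd and Vamp8 did not (for Lamp1, edgeR adjusted p = 0.142 without the Foxn1Lin female and 0.151 without the Foxn1Lin male). In the smaller set Vil1, Lamp1, Ctsd, Vamp8 and Anxa5 held, and 3 others of the 8 did not.

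**Figure D2:**
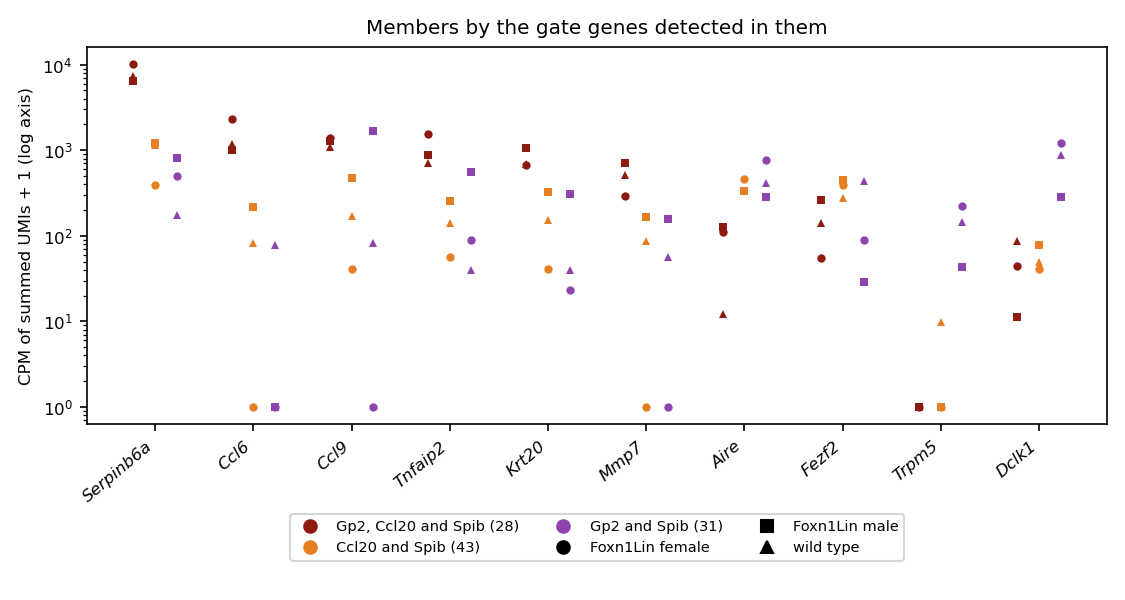
CPM plus 1 (log axis) of 10 genes in members split by the gate genes detected in them, 1 point a library, with the 5 members with Gp2 and Ccl20 left out. Ccl6 lies at 1003 to 2331 CPM with all 3 gate genes and at 0 to 218 CPM with 2, whereas Trpm5 is at 0 with all 3.

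Among keratins and the genes of largest fold change, Krt20, a keratin of differentiated gut epithelium, was at 242, 557 and 185 CPM in members against 20.1, 11.5 and 6.42 CPM (4.77 ± 0.42, edgeR adjusted p = 0.00419). Mmp7, a matrix protease of Paneth cells, was at 102, 335 and 150 CPM against 7.71, 3.56 and 3.03 CPM, and Cyp2a5, a cytochrome P450, at 361, 1069 and 681 CPM against 52.4, 33.7 and 33.1 CPM. All 3 genes were higher in members in every library without overlap. Csn3 (kappa-casein) was at 168, 84.9 and 117 CPM against 3.65, 0.49 and 2.97 CPM, and Uts2b, which encodes a urotensin-like peptide, at 80.5, 297 and 108 CPM against 9.95, 1.13 and 1.76 CPM, detected in 17 and 22 members. The claudin genes Cldn4 and Cldn7 were higher in both sets, and Cldn3 with all 3 gate genes (1.69 ± 0.31, edgeR adjusted p = 0.00347), whereas Krt18 was lower in both sets (-1.91 ± 0.28 over all members). Of the factors of other mimetic lineages 7 of 17 were tested, and Hnf4g, a nuclear receptor of the gut, and Foxa1 were higher and Sox9 lower in both sets, while Hnf4a had 1 UMI in each of 2 libraries and was not tested. The calls of Hnf4g, Foxa1, Sox9, Cldn4, Cldn7 and Krt18 over all members were lost when the Foxn1Lin female or the Foxn1Lin male was left out. Each kept its direction in both fits, with log2 fold changes of -1.59 and -1.83 for Krt18 and 1.40 and 1.62 for Cldn7. Such fits have fewer libraries and less power, so a lost call is not a lost difference. In the smaller set Cldn3, Cldn4 and Cldn7 held with each library left out but Hnf4g, Foxa1, Sox9 and Krt18 did not.

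Of the list of RANK and NF-kB genes, Tnfrsf11a, which encodes RANK, Tnfrsf11b and Traf1 were higher in members. Tnfrsf11a was at 312, 411 and 490 CPM in members against 147, 145 and 175 CPM in other TEC (1.43 ± 0.18, edgeR adjusted p = 0.00852). Tnfrsf11b, the soluble decoy osteoprotegerin that holds the RANK ligand, was at 403, 537 and 423 CPM against 49.7, 60.5 and 57.8 CPM (3.08 ± 0.18, edgeR adjusted p = 0.00272), and Traf1, an adaptor of the pathway, at 319, 304 and 179 CPM against 70.2, 60.0 and 44.9 CPM (2.23 ± 0.19, edgeR adjusted p = 0.00417). All 3 held with each library left out. Over all genes the shares were 9.27% higher and 6.3% lower. Of the 19 genes of the list 7 were higher over all members and 0 lower (median 0.63), the others being Cd40, Nfkb2, Rel and Relb, whose calls were lost with the Foxn1Lin female or the Foxn1Lin male left out. With all 3 gate genes, 4 were higher: Tnfrsf11a, Tnfrsf11b, Traf1 and Map3k14, of which Map3k14 did not hold with each library left out. Cd40, at 140, 106 and 136 CPM over all members, was at 54.2, 52.0 and 60.1 CPM in those with all 3, beside 74.9, 57.5 and 66.6 CPM in other TEC.

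Of all genes tested, 9.27% were higher and 6.3% lower over all members, and 8.58% and 7.13% with all 3 gate genes. Of the chemokine list 13 of 16 genes were tested, and 6 were higher and 2 lower over all members. Of these 8 calls, 5 were made again in the same direction with all 3 gate genes (Ccl6, Ccl9 and Cxcl16 higher, Cx3cl1 and Cxcl12 lower), and Ccl5, Ccl22 and Cxcl9 were not called. Cxcl10 and Ccl2 were lower there. Over all members Ccl6, Ccl9, Cxcl9 and Cxcl12 held with each library left out and the other 4 did not, and of the 7 calls of the smaller set Ccl2 alone did not. Cxcl9, a chemokine of interferon-stimulated cells, was at 515, 331 and 814 CPM over all members against 218, 119 and 188 CPM in other TEC (1.68 ± 0.21, edgeR adjusted p = 0.00892) but at 21.7, 177 and 0 CPM with all 3 gate genes, where the log2 fold change was -1.76 and missed the threshold (edgeR adjusted p = 0.2). In that set it was -4.89 and passed without the Foxn1Lin male (edgeR adjusted p = 0.0014). Without the Foxn1Lin female or the wild type it was -1.24 and -0.65 and missed the threshold. Ccl22 was higher over all members (3.29 ± 0.61, edgeR adjusted p = 0.0218; 0.0971 without the Foxn1Lin female) and at 10.8, 10.4 and 18.8 CPM with all 3, beside 33.5, 4.86 and 20.9 CPM in other TEC. Of 17 genes of MHC class II and costimulation, 5 were higher and 2 lower over all members, and 1 was higher and 5 lower with all 3. Over all members Cd80 alone of the 7 held with each library left out, and H2-Aa, H2-Eb1, Cd74, Ctss, Ctsl and Cd274 did not. Of the 6 calls with all 3, H2-DMb2 and Ctsl held, both lower, and H2-DMa, Ctss, Cd83 and Cd274 did not. H2-Aa was at 3294, 4582 and 3600 CPM in members, 1767, 4102 and 2470 CPM with all 3 and 2310, 2717 and 2373 CPM in other TEC, and its call over all members (0.69 ± 0.12, edgeR adjusted p = 0.0177) was lost when the Foxn1Lin female or the Foxn1Lin male was left out (edgeR adjusted p = 0.123 in both). Aire was at 357, 260 and 286 CPM over all members and at 108, 125 and 11.3 CPM with all 3, against 203, 159 and 156 CPM in other TEC. Its call over all members (0.86 ± 0.17, edgeR adjusted p = 0.0236) was lost with any library left out. With all 3 the log2 fold change of Aire was -1.27 and missed the threshold (edgeR adjusted p = 0.118). Of 10 cytokine genes tested Tnf, Il23a and Il1rn were higher and Il33 lower over all members, though each lost its call with at least 1 library left out. Of these Il1rn, which encodes the interleukin-1 receptor antagonist, was also higher with all 3 (1.69 ± 0.38, edgeR adjusted p = 0.0101), and Csf1 was lower there, though neither held with each library left out. Of 18 genes of mucosal defence 16 were tested, and 10 were higher over all members, of which 5 held with each library left out (Pglyrp1, Saa1, Saa3, Nos2 and Lyz1) and Saa2, S100a9, Lyz2, Reg3g and Cyba did not. In members with all 3 gate genes Pglyrp1, Lyz1, Lyz2 and Reg3g were higher, each also with any library left out, and Lcn2 and S100a9 were lower, which did not hold. S100a9 thus changed sign, from 59.5, 196 and 244 CPM over all members to 0, 15.6 and 3.75 CPM, beside 56.4, 44.8 and 66.7 CPM in other TEC.

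**Figure D3:**
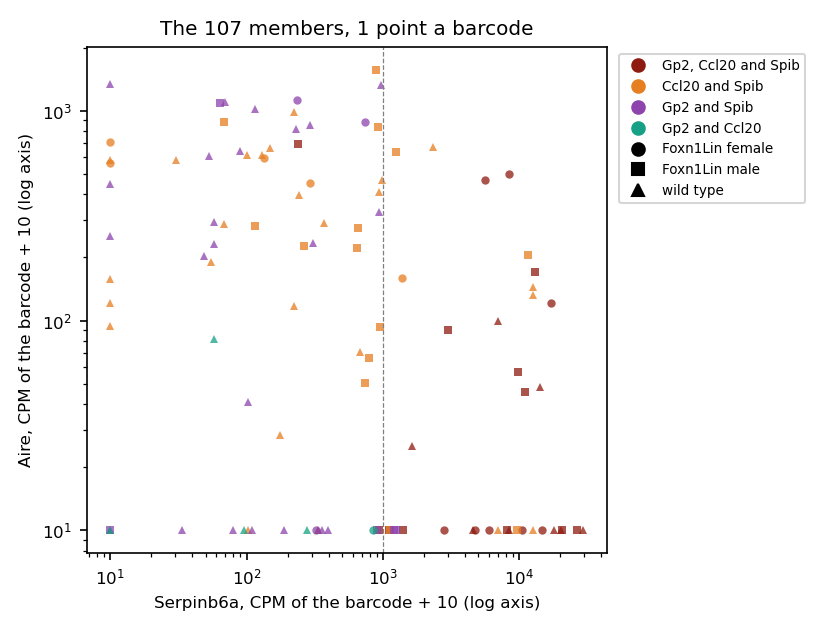
Aire against Serpinb6a in each of the 107 members, as CPM of the barcode plus 10 on log axes, coloured by the gate genes detected and shaped by library, with a dashed line at 1000 CPM of Serpinb6a. Of the 28 members with all 3 gate genes 25 lie at or right of the line, and 53 of the 107 lie left of it with Aire detected.

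Single barcodes showed the same split. Serpinb6a was at 1000 CPM or more in 37 of 107 members, of which 21 had no Aire UMI, and 53 members were below it with Aire detected. The high barcodes were 25 of 28 with all 3 gate genes, 10 of 43 with Ccl20 and Spib, 2 of 31 with Gp2 and Spib and 0 of 5 with Gp2 and Ccl20. Aire was at 460, 329 and 331 CPM with Ccl20 and Spib, and 761, 281 and 414 CPM with Gp2 and Spib. The tuft-cell channel gene Trpm5 was at 0 UMIs with all 3 gate genes, at 0, 0 and 8.77 CPM with Ccl20 and Spib, and at 224, 42.2 and 144 CPM with Gp2 and Spib. Dclk1, a kinase of tuft cells, was at 1209, 281 and 867 CPM with Gp2 and Spib, against 43.4, 10.4 and 86.3 CPM with all 3. Ltc4s, the leukotriene C4 synthase of the same list of tuft effectors, was at 80.5, 39.2 and 108 CPM over all members, 130, 62.4 and 78.8 CPM with all 3 gate genes and 21.1, 11 and 18.9 CPM in other TEC. It was higher over all members (2.19 ± 0.25, edgeR adjusted p = 0.00719) and with all 3 (2.50 ± 0.41, edgeR adjusted p = 0.00171), in both also with each library left out. It was the single call among the 6 tuft effectors tested over all members. In the smaller set Avil, a gene of the tuft gate, was lower, with 0 UMIs in all 3 libraries against 28.6, 16.2 and 32.5 CPM in other TEC (edgeR adjusted p = 0.0211), which did not hold with each library left out. A comparison of members with and without Gp2 was possible in the Foxn1Lin male (16 against 14) and the wild type (36 against 24), and 0 of 9907 genes passed in edgeR (0%), with 870 at an unadjusted p under 0.05 and 22 called by DESeq2. Members with Gp2 pooled those with all 3 gate genes and those with Gp2 and Spib. The comparison therefore cut across the split above and could not test it, and with so few libraries a count of 0 says little.

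**Figure D4:**
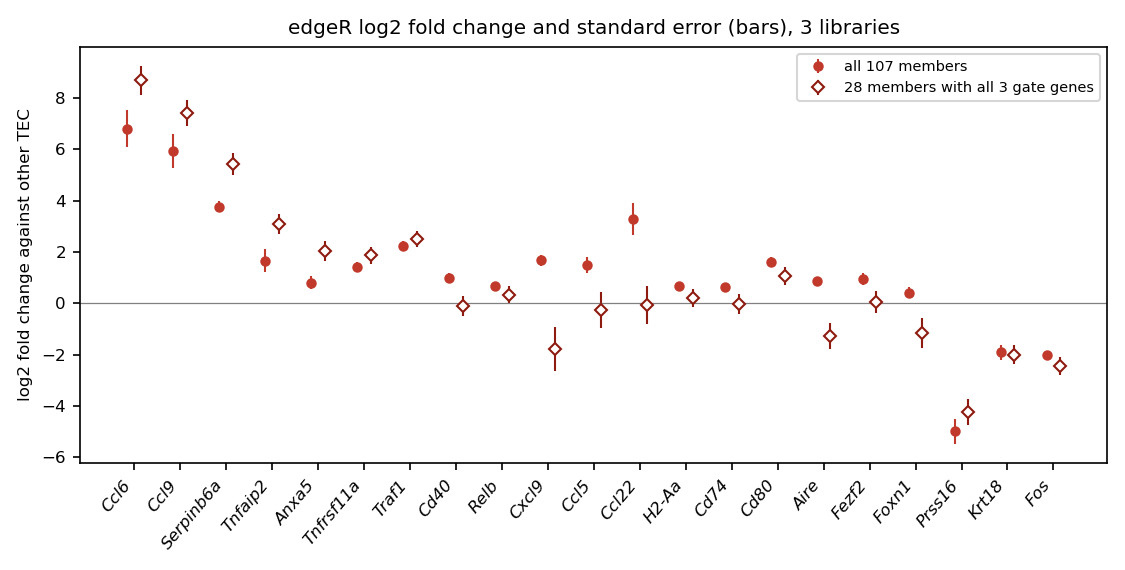
edgeR log2 fold change against other TEC with a standard error derived from the quasi-likelihood F (bars) for 21 genes, over all 107 members (filled) and over the 28 members with all 3 gate genes (open). Ccl6, Ccl9, Serpinb6a and Tnfaip2 lie higher in the smaller set, and Cxcl9, Ccl22 and Aire change from above to below 0, where none of them was called.

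Over all genes, 6.3% were lower and 9.27% higher in members than in other TEC. Of 11 genes of thymic epithelial function 4 were lower in members and 0 higher: Prss16, Psmb11, Cxcl12 and Kitl, of which Kitl did not hold with each library left out. Against the Aire stage 0 of these 11 genes were called over all members. With all 3 gate genes Il7 and Tbata were called there, and neither held with each library left out. Prss16, a serine protease of cortical TEC, was at 10.5, 9.80 and 14.9 CPM in members and 1099, 107 and 471 CPM in the others (-4.98 ± 0.49, edgeR adjusted p = 0.00534). Psmb11, a subunit of the thymoproteasome, was at 7.0, 0 and 5.38 CPM against 268, 15.7 and 91.9 CPM, and Cxcl12, which attracts T cell progenitors, at 28.0, 4.90 and 12.6 CPM against 333, 90.8 and 221 CPM (-3.92 ± 0.26, edgeR adjusted p = 0.00272). No library overlapped between the classes in these 3 genes. Foxn1 was at 119, 55.5 and 92.1 CPM in members and 78.5, 55.0 and 68.4 CPM in other TEC and missed the threshold (0.41 ± 0.21, edgeR adjusted p = 0.245). With all 3 gate genes it was at 0, 52.0 and 22.5 CPM, and the log2 fold change was below 0 and also missed the threshold (-1.16 ± 0.60, edgeR adjusted p = 0.23). The immediate early genes Fos, Jun and Atf3, which dissociation can induce, were among 7 of 9 stress genes lower in members (Fos at 382, 509 and 473 CPM against 1625, 2444 and 1735 CPM), and 0 were higher. Of the 7, Fos, Fosb, Jun and Atf3 held with each library left out and Junb, Egr1 and Dnajb1 did not. The 9 genes summed to 3308, 3820 and 3598 CPM in members, 9293, 11170 and 9488 CPM in other TEC and 4118, 4459 and 3139 CPM in the Aire stage. Other TEC was itself mixed: the parathyroid hormone gene Pth was at 2671, 2809 and 2549 CPM and the immunoglobulin gene Igkc at 6655, 4182 and 2151 CPM there, and both were among the largest falls in members.

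The summed level of 10 hematopoietic markers was 1803, 1872 and 1283 CPM in members, 745, 422 and 409 CPM in other TEC and 1556, 1165 and 1274 CPM in the Aire stage. Of the 6 tested, 4 were higher in members than in other TEC (9.27% of all genes were), and of these Rac2 and Cd52 held with each library left out and Laptm5 and Fcer1g did not. Cd79a was at 0 in both Foxn1Lin libraries. The sum of 9 macrophage markers was 830, 535 and 414 CPM in members, 233, 140 and 124 CPM in other TEC and 506, 362 and 305 CPM in the Aire stage, and Lyz2 alone was at 627, 496 and 216 CPM in members. The hematopoietic sum with all 3 gate genes was 813, 1544 and 758 CPM and the macrophage sum 401, 447 and 638 CPM, of which Lyz2 was 336, 421 and 537 CPM. There C1qa, C1qc, Adgre1 and Mrc1 were at 0 in every library, and Csf1r, Cd68 and Cd14 were each above 0 in 2. The sum of 7 mural cell markers was 329, 439 and 976 CPM in members, 283, 346 and 397 CPM in other TEC and 445, 390 and 2541 CPM with all 3 gate genes, of which Rgs5 was 2399 CPM in the wild type, and 1 barcode gave 37.7% of the Rgs5 UMIs of all members. Myh11 and Rgs5 were higher over all members and Myh11 and Cspg4 higher and Tagln lower with all 3. None of these calls held with each library left out. Fibroblast markers summed to 252, 40.8 and 78.9 CPM in members and 553, 251 and 237 CPM in other TEC. For the same classes, endothelial markers summed to 105, 29.4 and 35.9 CPM and 79.0, 35.4 and 40.3 CPM, and those of B cells and plasmacytoid dendritic cells to 480, 387 and 570 CPM and 906, 689 and 909 CPM. The part of such cells in the other results was not tested. With both classes restricted to barcodes without Ptprc, 1425 genes were called.

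Against the Aire stage (457 Epcam-gated barcodes that met the Aire gate and not the microfold gate), fewer genes differed. Of 10244 tested, 91 were higher in members (0.888%) and 15 lower (0.146%), and the 106 calls became 0 without the Foxn1Lin female, 11 without the Foxn1Lin male and 0 without the wild type. Of the members, 71.03% met the Aire gate themselves. Without members in the Aire or tuft gate the counts were alike, with 390 calls against the Aire stage and 386 against other TEC. The calls that follow are over all members. Of the M-cell program 7 genes were higher: Ccl9, Ccl6, Serpinb6a, Pglyrp1, Aif1, Tnfrsf11b and Umod. The tuft effectors Avil and Dclk1 were higher as well (2.56 ± 0.32 and 2.53 ± 0.31, edgeR adjusted p = 0.0381 and 0.0376), of 6 tested, and neither held with each library left out. Dclk1 was at 221, 80 and 343 CPM over all members against 27.4, 26.4 and 51.3 CPM in the Aire stage, and with all 3 gate genes it missed the threshold (0.35 ± 0.51, edgeR adjusted p = 0.741). Of the other lists, Anxa2, Ctsd, Reg3g, Krt19 and Krt20 were higher. Serpinb6a was at 188, 224 and 139 CPM in the Aire stage (log2 fold change 3.89 ± 0.19, edgeR adjusted p = 0.0134), and Tnfrsf11b at 126, 162 and 168 CPM (1.63 ± 0.17, edgeR adjusted p = 0.0251). Tnfrsf11a, at 345, 372 and 476 CPM in the Aire stage, overlapped with members and missed the threshold (0.07 ± 0.14, edgeR adjusted p = 0.866). With all 3 gate genes, 523 of 9809 genes were higher (5.33%) and 431 lower (4.39%), and the 954 calls became 342 without the Foxn1Lin female, 978 without the Foxn1Lin male and 965 without the wild type. There 14 program genes were higher, 12 of them also with each library left out. Of the RANK and NF-kB list 4 genes were called, Tnfrsf11b, Cd40, Traf1 and Traf3, and Tnfrsf11b alone held with each library left out. Cd40 was lower (-1.55, edgeR adjusted p = 0.018). All 8 tested cell cycle genes were lower, of which Mki67, Ube2c and Cdk1 held with each library left out, and Mki67 was at 0, 0 and 3.75 CPM beside 59.0, 73.4 and 103 CPM in the Aire stage (-5.42 ± 0.76, edgeR adjusted p = 0.00299). Of MHC class II and costimulation, H2-DMa, H2-DMb2, H2-Oa and Ciita, the class II transactivator, were lower there, and H2-DMb2 alone of these held with each library left out. The calcitonin receptor gene Calcr had 0 UMIs in members and was at 96.9, 55.2 and 16.4 CPM in the Aire stage.

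Against tuft-gated barcodes (71, that is 15, 12 and 44), 813 of 10346 genes were higher in members (7.86%) and 276 lower (2.67%), and 17 of 19 tested program genes were higher. Of these 12 held with each library left out, and Sox8, Tnfaip2, Marcksl1, Prnp and Cxcl16 did not. Ccl6 was at 3.35, 0 and 0 CPM in tuft-gated barcodes and Umod was at 0 UMIs there. Il25, the cytokine tuft cells are known for, was at 17.5, 0 and 8.37 CPM in members against 107, 32.9 and 54.8 CPM (-2.90 ± 0.58, edgeR adjusted p = 0.0235), and its UMIs in members all lay in 5 barcodes with Gp2 and Spib. Gjb2, which encodes a connexin, was at 452, 478 and 273 CPM in members and 13.4, 4.11 and 6.19 CPM in tuft-gated barcodes (5.69 ± 0.41, edgeR adjusted p = 0.00231), without overlap.

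**Figure D5:**
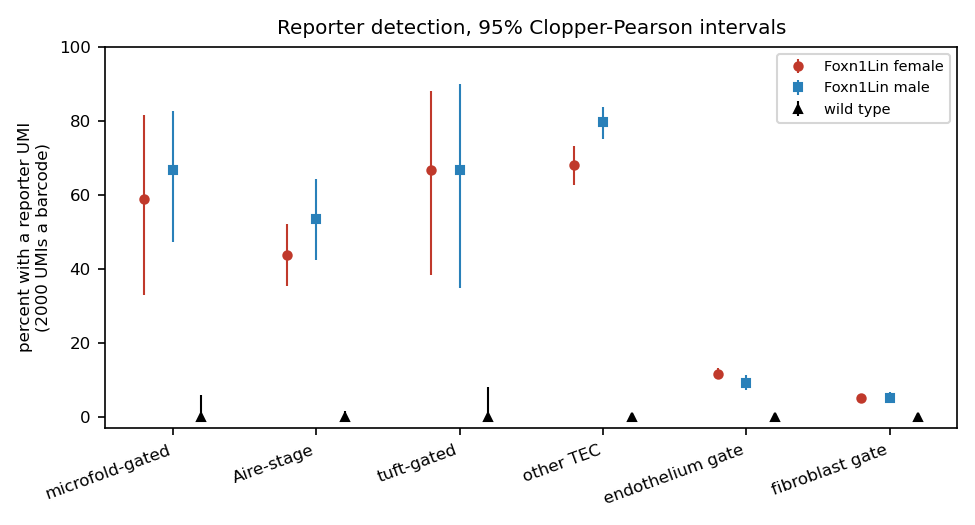
Percent of barcodes with a reporter UMI after thinning to 2000 UMIs, by class and library, with 95% Clopper-Pearson intervals. Members lie at 58.8% and 66.7% in the Foxn1Lin libraries and at 0 in the wild type, and FB lie at 4.90% and 4.98%.

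The reporter, which marks a history of Foxn1 expression, was read as the share of barcodes with a reporter UMI. At 2000 UMIs a barcode, 10 of 17 members of the Foxn1Lin female (58.8%, 95% Clopper-Pearson interval 32.9 to 81.6) and 20 of 30 of the Foxn1Lin male (66.7%, 47.2 to 82.7) had a reporter UMI. With at least 2 reporter UMIs required the shares were 29.4% and 40%, and without thinning they were 88.2% and 93.3%. The wild type, which lacks the reporter, had 0 reporter UMIs in its 60 members. Other TEC were at 68.0% and 79.7%, tuft-gated barcodes at 66.7% in both, and the Aire stage at 43.7% and 53.5%, with intervals that overlapped those of members in each library. FB, which should lack the reporter, were at 4.90% and 4.98% and endothelium-gated barcodes at 11.6% and 9.08%, below the intervals of members. Per UMI, the reporter was at 417 and 646 CPM in members, 938 and 1359 CPM in other TEC, and 408 and 630 CPM in the Aire stage. Among members with all 3 gate genes 4 of 8 and 7 of 11 were positive.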

How the data were processed

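Deposited data were UMI counts (whole numbers) for each gene and barcode, which the authors made with Cell Ranger (7.01 in the submitters' processing notes) on GRCm38 with reporter sequences added, for nonhematopoietic thymus cells of 3 libraries. The members, gene lists and comparison gates were chosen with earlier results of these data known, and levels by the gate genes detected are described without a test, apart from the fits of members with all 3 gate genes and of members with and without Gp2. Counts were summed per library and class. A library needed at least 10 barcodes on each side in the Aire-stage, tuft and Gp2 comparisons, which left the Foxn1Lin female (5 without Gp2) out of the last and the Foxn1Lin male (8 tuft-gated) out of the tuft comparison at 5000 UMIs. By contrast, members with all 3 gate genes (8, 11 and 9) and members outside the Aire and tuft gates (4, 10 and 11) were fitted with no such minimum. Genes with a mean CPM of at least 10 over the sums of both classes were tested with edgeR 4.0.16 (quasi-likelihood, TMM, library as block, Benjamini-Hochberg, threshold 0.05, R 4.3.3). The gate genes were not tested. SE is the absolute log2 fold change divided by the root of the quasi-likelihood F, and not a standard error over library differences. Alternatives were DESeq2 1.42.0, another scaling, no filter, other gates, depth, doublets (highest Scrublet scores up to 3.9%, since doublets were not removed otherwise) and each library left out. The edgeR test was run on simulated counts of all members against other TEC alone, with the same dispersion for every gene. That run, whose outcome is not given here, does not cover the other comparisons or the fits of fewer members. Named genes were list members and, per comparison, up to 15 higher and 10 lower called genes of largest fold change, with the same sign in every library and at least 30 UMIs. Shares have 95% Clopper-Pearson intervals (scipy 1.17.1), after thinning to 2000 UMIs. Ccl19 and Ccl21a, each present under 2 identifiers, were not read. Promoters came from RefSeq, GRCm38.p6. P-values rest on the spread between libraries together with dispersion that edgeR shares across genes, and each group was 1 library. With all 3 gate genes and no wild type, Ccl6 against other TEC had an edgeR adjusted p = 3.1e-59. The libraries left cannot give such a value by their own spread, so calls that held are no measure of replication.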

Additional observations from a re-analysis of the deposited data

How the results depend on the processing

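Direction and calls were recomputed for the named results. Against other TEC, the 1596 calls became 3026 with no filter on low counts, 438 to 1301 with 1 library left out and 386 without members in the Aire or tuft gate, against 2004 with DESeq2, 1616 with its size factors and 1547 with all 3 gate genes. Against tuft-gated barcodes, 1089 calls became 2151 with no filter and 685 without members in the Aire or tuft gate, with 965 to 1308 when 1 library was left out. Against the Aire stage, 106 calls became 568 with DESeq2, 1139 with no filter, 954 with all 3 gate genes, 390 without members in the Aire or tuft gate, and 0 to 11 with 1 library left out. With all 3 gate genes and 1 library left out, 1547 calls against other TEC became 938 to 1533, and 954 against the Aire stage became 342 to 978. For Gp2, 0 calls became 22 with DESeq2 and 394 with no filter. Reporter shares of 58.8% and 66.7% became 88.2% and 93.3% without thinning and 29.4% and 40% with at least 2 UMIs. The cause of these moves was not tested. Among named genes called in either fit, log2 fold changes against other TEC changed sign with all 3 gate genes for Cd40 (-0.10), Ccl5 (-0.24), Ccl22 (-0.0695), Cxcl9 (-1.76), Cd74 (-0.0235), S100a9 (-2.82), Saa2 (-3.31), Csf1 (-2.09), Ccl2 (-2.27), H2-DMb2 (-1.93), Cd83 (-2.61), Aire (-1.27) and Avil (-9.94, with 0 UMIs in members, so no bound). Without members in the Aire or tuft gate they did so for Cd40 (-1.97), Ccl5 (-2.42), Ccl22 (-0.40), Cxcl9 (-2.71), Il23a (-0.17), Tnf (-1.08), H2-Aa (-0.18), H2-Eb1 (-0.58), Cd74 (-0.60), Saa2 (-0.83), Fcer1g (-2.88), Cd83 (-10.83, with 0 UMIs in members, so no bound), Cd80 (-0.41), Aire (-4.59) and Fezf2 (-2.12), and Aire against tuft-gated barcodes (-2.83), where Aire, Fezf2 and Cd80 are genes of the gate removed. Foxn1 (-1.16 with all 3 gate genes) and Dclk1 (-1.11), called in neither, changed sign too. The setting without members in the Aire or tuft gate, those with all 3 gate genes and 1 library left out, all 3 gate genes against the Aire stage and tuft-gated barcodes, and members with Ccl20 detected were chosen after seeing the data. Leaving out a library from the Gp2 comparison left 1 library and was not possible. Classes were compared within libraries, with the library as block, and without the block there were 1418 calls against other TEC. Depth limits what 17 to 60 members a library can show, and intervals cover counting error only.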
